A study of Mus musculus with 9 samples.

Results

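The 3 arrays of wild-type long-term haematopoietic stem cells, of 9 arrays in the series, were taken as a baseline and described gene by gene. They were chosen by their labels alone, as the samples labelled WT (control), and no measured value entered the choice. One probe set was kept for each gene, which left 22180 named genes with a mean, a standard deviation (SD) and a percentile rank over the WT arrays. The series sorted long-term stem cells (LT-HSC) by flow cytometry from bone marrow of C57BL/6 mice of 3 genotypes with 3 biological replicates each. The gate took cells without lineage antigens, with Sca-1 and c-kit, and without CD34 and CD135. The other genotypes were MxCre Jak2VF/+, here Jak2VF, and MxCre Jak2VF/+ EZH2-/-, here Jak2VF_Ezh2KO, in which Cre is expressed from the interferon-inducible Mx promoter. All mice, controls included, received 5 doses of 300 µg pI-pC, an inducer of interferon, at 4 weeks after birth, and marrow was taken 12 weeks later. The WT baseline is therefore that of injected mice, and the labels leave out whether the WT mice carried MxCre. Each array used 10 ng of RNA, amplified before labelling. How many mice made up a sample was not stated.

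Long-term haematopoietic stem cells sit at the top of the blood hierarchy. Most of them are out of the cell cycle at any time, they are held in the bone marrow by stromal cells and endothelium, and they can rebuild all blood lineages after transplantation. Transcription factors such as Mecom, Meis1, Erg, Gata2, Hlf and Runx1 keep this state, and signals from the niche reach the cells through Kit, integrins, Cxcr4 and cytokine receptors.

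Signal is given on the log2 scale of the deposited table. Olfactory receptor genes, which serve smell and are mostly silent in blood cells, served as the background reference. Their median on WT replicates 1, 2 and 3 was 4.28, 3.89 and 4.37, and their 95th percentile, the background threshold of each array, was 6.57, 5.91 and 6.69. Replicate 2 thus had the lowest receptor signal, and its threshold was passed by 10250 genes, against 6595 on replicate 1 and 6166 on replicate 3. A gene is called above background when it passed the threshold on all 3 WT arrays, which 5633 of 22180 genes did (25.4%). It is called bright when it also lay at or above the 90th percentile rank of the WT means, as 2219 genes did (10.0%), and otherwise intermediate (3414 genes). The mixed class holds 4743 genes that passed on 1 or 2 arrays, of which 3267 passed on replicate 2 alone. The remaining 11804 genes were at background on every WT array.

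The classes have limits. A percentile rank orders probe set signals, and probes differ in how well they bind, so the order of different genes is not an order of transcript abundance. The background class does not mean that a gene is silent. Of 45 ribosomal protein genes, which every cell uses, 4 were at background (Rps29, Rplp2, Rps16 and Rpl30), while the list as a whole had a median rank of 99.6. As a check from the other side, 42 genes of other tissues, such as albumin, keratins, muscle proteins and pancreatic hormones, gave 0 above background, 7 mixed and 35 at background. The 3 WT arrays correlated with each other across genes at 0.963 to 0.967, and the median SD of a gene over them was 0.201. In 2103 genes at least 2 WT arrays held the identical value, and in 223 all 3 did, so that very small SDs can understate the spread. Of the list members with several probe sets, 37 of 83 had some that were above background and some that were not, among them Mecom, Cd9, Cish, Hif1a, Angpt1, Gapdh and Pdk1, and the values given are those of the brightest probe set.

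**Figure D1:**
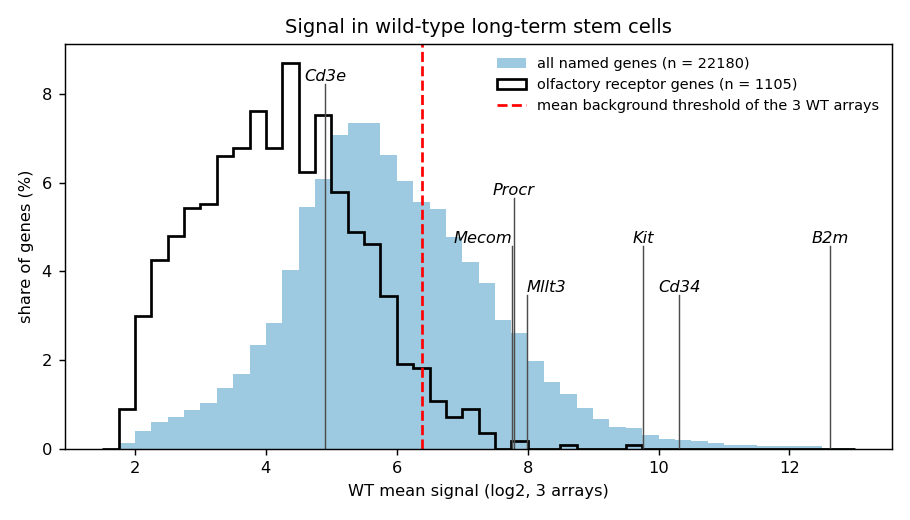
Distribution of the mean log2 signal over the 3 WT arrays (x axis) as the share of genes per bin (y axis, %), for all 22180 named genes (filled) and 1105 olfactory receptor genes (black line). The dashed line is the mean background threshold; Procr, Mecom, Mllt3, Kit, Cd34 and B2m lie to its right and Cd3e to its left.

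Each stem cell marker given for these cells that had a named probe set was above background. No cells outside the gate were measured, so whether these signals single out long-term stem cells was not tested. Kit, the receptor for stem cell factor and part of the sort gate, read 9.52, 10.001 and 9.78 and was bright. Mllt3, a chromatin reader of the transcription elongation machinery that maintains stem cells, read 8.04, 7.97 and 7.94 and was bright as well. Procr, the endothelial protein C receptor used to purify stem cells, read 7.97, 7.57 and 7.81. The transcription factor gene Mecom read 7.90, 7.55 and 7.83. Both lay just under the bright class, at percentile ranks of 89.0 and 88.7, and passed the threshold on each array. A second Mecom probe set with a mean of 6.20 did not pass on all arrays, so the call for Mecom rests on the brighter one. Ly6a, the gene of the gate antigen Sca-1, was not analysed here, because no probe set carried its name.

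Cd34 and Flt3, whose proteins the gate selected against, were above background, and lineage antigen genes were not. Cd34, a sialomucin kept out at the protein level by the gate, read 10.19, 10.57 and 10.18, which placed its transcript at rank 99.1 and in the bright class. Flt3, which encodes CD135, the receptor that marks multipotent progenitors, read 7.34, 7.64 and 6.91 and was intermediate at rank 82.7. The gate acts on surface protein and the arrays on RNA, and how far the 2 differ in these cells was not tested. Of 11 measured lineage cocktail antigens, 0 were above background (1 without WT replicate 3), 2 were mixed (Ly6c2 and Itgam) and 9 were at background. Cd3e, the signalling chain of the T cell receptor complex, read 4.90, 4.91 and 4.92, and Cd79a, that of the B cell receptor, read 4.85, 4.96 and 4.78. Neither came near its array's threshold. Ly6g, a neutrophil antigen, read 3.42, 3.83 and 6.67, close to the threshold on replicate 3 only.

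The letters before the start sites of some of these genes were set side by side as examples. The 120 bases just before the first listed RefSeq start (GRCm38.p6) are printed 5′ to 3′ on the gene's strand for the 4 measured stem cell markers and, for contrast, for 2 lineage genes at background. Capitals mark CpG dinucleotides. The positions are chr2:155751097-155751216 for Procr (plus strand), chr3:30509760-30509879 for Mecom (minus), chr4:88033408-88033527 for Mllt3 (minus), chr5:75574867-75574986 for Kit (plus), chr9:45009612-45009731 for Cd3e (minus) and chr7:24897377-24897496 for Cd79a (plus).
Procr: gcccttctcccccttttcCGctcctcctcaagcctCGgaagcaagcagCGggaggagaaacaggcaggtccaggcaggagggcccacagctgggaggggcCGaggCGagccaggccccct
Mecom: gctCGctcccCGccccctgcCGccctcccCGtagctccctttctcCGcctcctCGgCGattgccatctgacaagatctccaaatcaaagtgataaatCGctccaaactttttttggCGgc
Mllt3: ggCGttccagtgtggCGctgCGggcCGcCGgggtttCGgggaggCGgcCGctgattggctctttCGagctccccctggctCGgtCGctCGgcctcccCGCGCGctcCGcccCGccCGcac
Kit: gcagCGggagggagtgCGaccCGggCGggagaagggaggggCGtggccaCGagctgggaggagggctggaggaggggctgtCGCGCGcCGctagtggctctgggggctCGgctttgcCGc
Cd3e: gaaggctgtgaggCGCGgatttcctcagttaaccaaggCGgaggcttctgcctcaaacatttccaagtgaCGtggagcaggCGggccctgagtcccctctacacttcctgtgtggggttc
Cd79a: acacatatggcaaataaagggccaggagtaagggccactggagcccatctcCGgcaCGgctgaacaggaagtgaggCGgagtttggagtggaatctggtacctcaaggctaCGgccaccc

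The stretch before Mllt3 held 18 CpG dinucleotides and that before Kit 12. Mecom had 9 and Procr 5, against 5 before Cd3e and 4 before Cd79a. Over 250 upstream bases the CpG count relative to that expected from the C and G content was 1.05 for Mecom, 0.780 for Mllt3, 0.601 for Kit and 0.570 for Procr. For Cd3e it was 0.344 and for Cd79a 0.278. Mecom, Mllt3 and Kit have 2 listed starts each, and which of them the cells used was not measured.

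Across all genes the same property followed the class. A RefSeq start was listed for 16990 genes, between 74.0% of the background class and 80.6% of the intermediate one. The median CpG ratio was 0.804 in the bright class, 0.749 in the intermediate, 0.684 in the mixed and 0.296 in the background class. Without olfactory and vomeronasal receptor genes the background class was still at 0.347. The GC box letters GGGCGG, searched on both strands of the 250 bases, occurred in 60.8% of bright genes and 28.8% of background genes, with 43.2% over all. The letters CCGGAAG, the core of many ETS family sites, occurred in 18.3% of bright and 3.88% of background genes, with 9.06% over all. The share with the letters AGATAA, common in sites of the Gata1 and Gata2 proteins, ran the other way, with 5.80% of bright and 12.1% of background genes (9.09% over all). The share with CCAAT hardly differed by class, lying between 34.7% and 37.7%. TATAAA on the gene's strand, 40 to 20 bases before the start, occurred in 1.21% of bright and 3.79% of background genes. These are matches of letters that move with GC content, and none of them is a measured binding site.

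The stem cell lists differed from each other in this respect. Starts of stem cell transcription factors had a median CpG ratio of 0.780 (31 genes with a listed start). Stem cell surface genes had 0.220 (19 genes), although both lists had most of their members above background. Lists of mature cell genes had 0.336 (dendritic cells), 0.320 (erythroid), 0.228 (B cells), 0.175 (neutrophil granules), 0.172 (megakaryocytes), 0.154 (monocytes), 0.150 (T and NK cells) and 0.132 (mast cells and basophils), so that stem cell surface genes lay within their range. The share with TATAAA varied among these small lists, beside 2.55% over all. It was 25% of 12 mast cell and basophil genes, 10.5% of 19 neutrophil granule genes, 9.09% of 11 dendritic cell genes and 7.69% of 13 B cell genes. The megakaryocyte list had 5.88%, and the erythroid, monocyte, and T and NK lists had 0%. In lists of this size the share rests on very few genes.

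**Figure D2:**
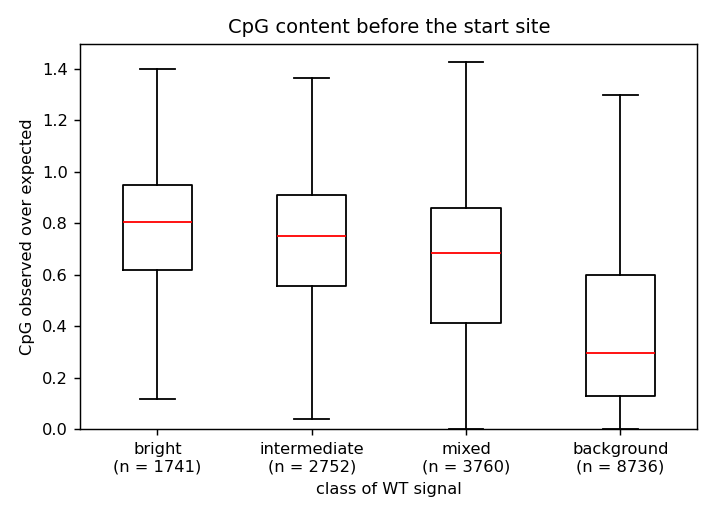
CpG observed over expected in the 250 bases before the first listed start (y axis) for the 4 classes of WT signal (x axis); boxes span the quartiles, red lines are medians, and whiskers reach at most 1.5 times the box. The median falls from 0.804 in the bright class to 0.296 in the background class.

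Stem cell transcription factors were read widely. Of 41 measured, 15 were bright and 9 intermediate, which is 58.5% above background beside 25.4% of all genes, with a median rank of 83.2 beside 50.0. Msi2, an RNA-binding regulator of stem cell number, had the highest signal of the list at 11.33, 11.35 and 11.34. Meis1, a homeodomain partner of Hox proteins, read 9.62, 9.75 and 9.64. Erg, an ETS factor needed for stem cell maintenance, read 9.01, 8.94 and 8.89, and the related Fli1 8.83, 9.29 and 9.20. All of these were bright with array differences well under 1 log2 unit. Hlf, a PAR bZIP factor found mainly in the most primitive cells, read 8.53, 8.28 and 8.57, lowest on replicate 2. Gata2 read 7.87, 8.22 and 7.87, Gfi1b, which restrains stem cell cycling, 8.63, 8.93 and 8.64, and Etv6, an ETS repressor, 9.77, 10.04 and 9.93. Ldb1, Lmo2, Cbfb, Kmt2a, Zfp36l2 and Myct1 completed the bright members. Runx1, a master regulator of blood formation, was intermediate at 7.35, 7.78 and 7.60, as were Tal1, Lyl1, Ikzf2 and Zfp521.

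Several regulators with known stem cell roles stayed in the mixed class. Bmi1, a Polycomb subunit required for self-renewal, read 5.89, 6.02 and 5.87. Prdm16 read 6.45, 6.63 and 6.45. Hoxb5, whose reporter marks long-term stem cells, read 6.20, 6.44 and 6.44, above the threshold only on replicate 2, and Gfi1 5.87, 6.24 and 5.57. Fgd5, another reporter locus of stem cells, was also mixed, at 6.08, 6.41 and 6.03. Foxo1, Foxo3, Klf4 and Egr1 were mixed as well, and Hes1, Nkx2-3 and Sox18 were at background.

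The surface genes of stem cells showed a similar picture. Of 28 measured, 8 were bright, 10 intermediate, 5 mixed and 5 at background (64.3% above background). Adgrg1, the adhesion receptor GPR56 of stem cells, read 10.24, 10.69 and 10.09, and Adgrl4, an adhesion receptor shared with endothelium, 10.72, 10.85 and 10.48. Ctla2a, a cathepsin inhibitor, read 11.01, 10.75 and 10.60. Tetraspanins were bright too, with Cd81 at 10.17, 10.67 and 10.42, Cd63 at 9.90, 10.01 and 10.03 and Cd9 at 8.08, 8.08 and 8.16. Slamf1, which encodes the CD150 antigen used to purify stem cells, read 7.06, 6.72 and 6.74, only just above the threshold on replicate 3. Vwf, a platelet adhesion protein whose reporter marks platelet-biased stem cells, read 6.93, 6.57 and 6.97. Both were intermediate. Emcn, an endothelial and stem cell sialomucin, read 7.43, 7.63 and 7.43 and Pdzk1ip1 7.60, 7.55 and 7.96. Cdh5 and Tm4sf1, of endothelium, and Jam2 were at background, and Cd38 was not analysed here.

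**Figure D3:**
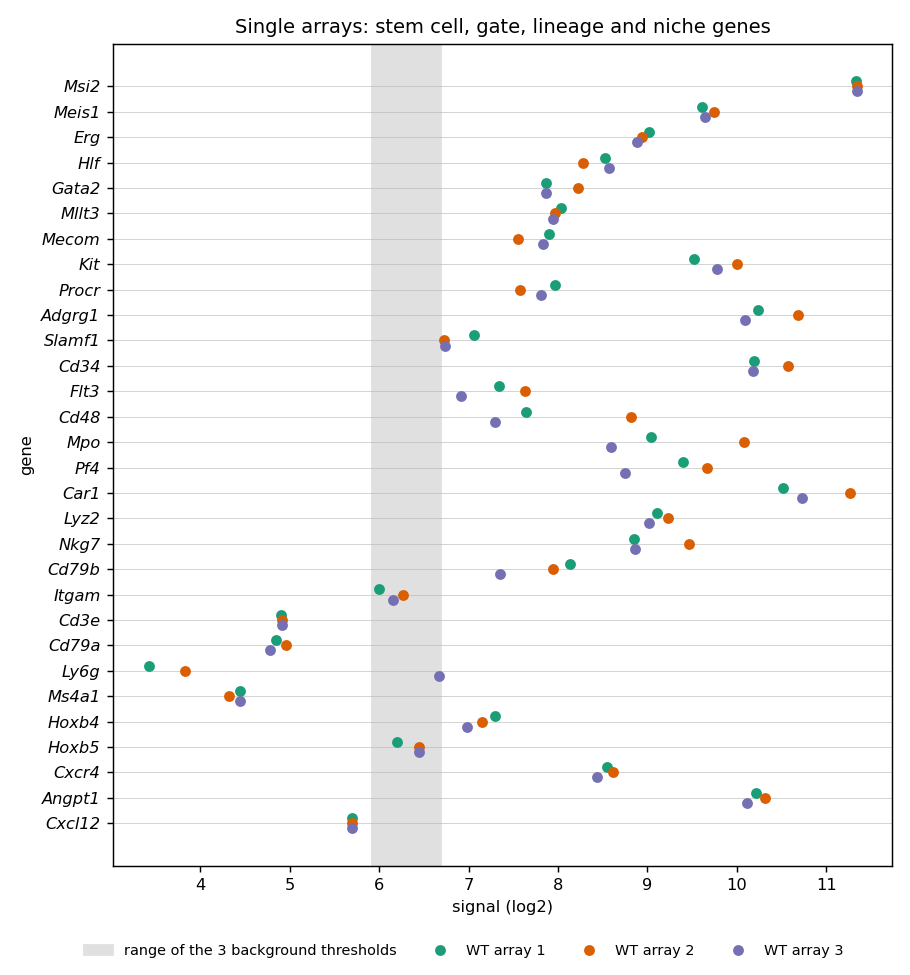
Log2 signal (x axis) of 30 genes (y axis) on each of the 3 WT arrays (coloured points), with the range of the background thresholds, 5.91 to 6.69, shaded. Most stem cell regulators, the gate genes and some lineage genes lie to the right of the band. Hoxb5 lies within it, and Cd3e, Cd79a and Ms4a1 lie to its left on every array.

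Hox genes, which set position in the embryo and sustain self-renewal in blood, were mostly at background. Of 36 measured, 2 were intermediate, 7 mixed and 27 at background, so that 5.6% were above background. The exceptions were Hoxb4, whose overexpression expands stem cells, at 7.29, 7.15 and 6.98 and Hoxa9, a leukaemia-linked regulator, at 6.92, 7.36 and 6.86. Mixed members were Hoxa3, Hoxa6, Hoxa7, Hoxb3, Hoxb5, Hoxb6 and Hoxd10. All 9 measured genes of the C cluster were at background, with a median rank of 20.7, against 47.2 for 9 genes of the A cluster. Fetal stem cell genes gave 1 of 9 above background. That member was Hmga2, a chromatin protein of fetal and young stem cells, at 7.55, 7.41 and 7.35, while Lin28a and Lin28b, RNA-binding proteins of the fetal program, and Sox17 were at background. Among 18 imprinted genes 1 was above background (4 without WT replicate 3), the growth adaptor gene Grb10 at 6.88, 7.22 and 6.98. Cdkn1c, which encodes the cell cycle inhibitor p57, read 6.05, 6.08 and 6.11, above the threshold only on replicate 2, and Igf2, Peg3 and Dlk1 were at background.

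Genes of mature and committed cells separated by lineage. In a bulk sample fewer cells of a type and less RNA per cell cannot be told apart, which holds for every value that follows. Megakaryocyte and platelet genes had 12 of 21 above background (57.1%) and a median rank of 79.9. Pf4, a platelet granule chemokine, read 9.40, 9.67 and 8.75, Gp9, a subunit of the von Willebrand factor receptor, 8.29, 8.56 and 8.40, and Itga2b, the CD41 integrin chain, 6.86, 7.41 and 7.10. Rap1b, F2r, Plek and Mmrn1 were bright. The list was not uniform, since Tubb1, Clec1b, Gp6, Thbs1 and Rab27b were at background. Erythroid genes had 10 of 20 above background. This count was 3 with the 99th percentile of olfactory receptor genes or with vomeronasal receptor genes as reference, beside 11.4% and 21.1% of all genes. It was 16 with the 90th percentile, beside 38.5% of all genes. The erythroid list was led by the carbonic anhydrase genes Car1 at 10.52, 11.26 and 10.73 and Car2 at 10.72, 10.87 and 10.49. Klf1, the main erythroid regulator, was intermediate at 6.71, 7.60 and 6.78, and Epor, the erythropoietin receptor gene, mixed at 6.14, 7.004 and 6.63. The adult globin genes lie on probe sets with several symbols and were not analysed here.

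Myeloid and lymphoid lists other than dendritic cell genes had 6.25% to 15.0% of their members above background, beside 25.4% of all genes. Without WT replicate 3 the share over all genes was 29.3%. These lists are small, and differences between them were not tested. Neutrophil granule genes had 3 of 20 above background, and 7 of 20 without WT replicate 3. Mpo, myeloperoxidase, read 9.04, 10.08 and 8.59, a span of more than 1 log2 unit between replicates 2 and 3. Secondary granule genes such as Ltf, Camp, Ngp and Lcn2 were at background on all arrays, and Elane, an early granule protease, was mixed. Among 20 monocyte and macrophage genes 2 were above background, namely Lyz2, lysozyme, at 9.10, 9.23 and 9.02 and Cx3cr1, the fractalkine receptor gene, at 7.03, 6.77 and 7.29, while Csf1r, Adgre1 and Cd14 were at background. The monocyte count was 5 without WT replicate 3. B cell genes had 1 of 16 above background, Cd79b at 8.14, 7.95 and 7.35, and Ebf1, Pax5, Ms4a1 and Vpreb1 were at background. T and NK cell genes had 2 of 23, Nkg7, a cytotoxic granule protein, at 8.85, 9.47 and 8.86 and the chemokine gene Ccl5 at 8.66, 7.73 and 7.32, while Cd3d, Cd3g, Gzma and Gzmb were at background. Without WT replicate 3 the B cell count was 2. Of 15 mast cell and basophil genes Kit and Gata2, which stem cells share, were above background, and the count was 4 without WT replicate 3. The mast cell proteases Tpsb2, Tpsab1, Cma1 and Mcpt4 were at background, and Cpa3, carboxypeptidase A3, was mixed at 7.31, 7.71 and 6.29. Dendritic cell genes had 6 of 14 above background (42.9%). These were Bst2, an antiviral membrane protein, at 8.41, 8.65 and 8.07, Tcf4, a regulator of plasmacytoid cells, at 7.46, 7.95 and 7.55, the lectin gene Cd209a at 8.12, 7.504 and 7.22, the class II genes H2-Aa and H2-Ab1, and Flt3. Itgax, Xcr1, Zbtb46 and Batf3 were at background, and Irf8 and Siglech were mixed. With the 99th percentile of olfactory receptor genes as threshold the count was 2 of 14, beside 11.4% of all genes.

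Of 19 measured genes that mark progenitors just below the stem cell, 6 were bright and 2 intermediate (42.1% above background). Cd48, an antigen absent from purified long-term stem cells, read 7.64, 8.82 and 7.30, and Cd27, a receptor shared by stem and progenitor cells, 8.14, 8.58 and 8.25. Plac8, of early myeloid cells, read 9.47, 9.81 and 9.04. For Cd48 replicate 2 was more than 1 log2 unit above both others. The list mean on replicates 1, 2 and 3 was 6.94, 7.44 and 6.68, and whether the replicates held different numbers of progenitor cells was not tested. Among 30 lineage transcription factors 9 were above background (30.0%) and 2 bright, near the shares over all genes. Bcl11a and Ikzf1, both of lymphoid and stem cells, were bright at 8.01, 8.60 and 8.31 and 7.52, 8.48 and 8.04. Spi1, which encodes PU.1, was intermediate at 7.43, 7.83 and 7.15, Gata1 was mixed at 6.76, 7.15 and 6.57, and Cebpa, Cebpe, Ebf1, Pax5 and Eomes were at background.

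**Figure D4:**
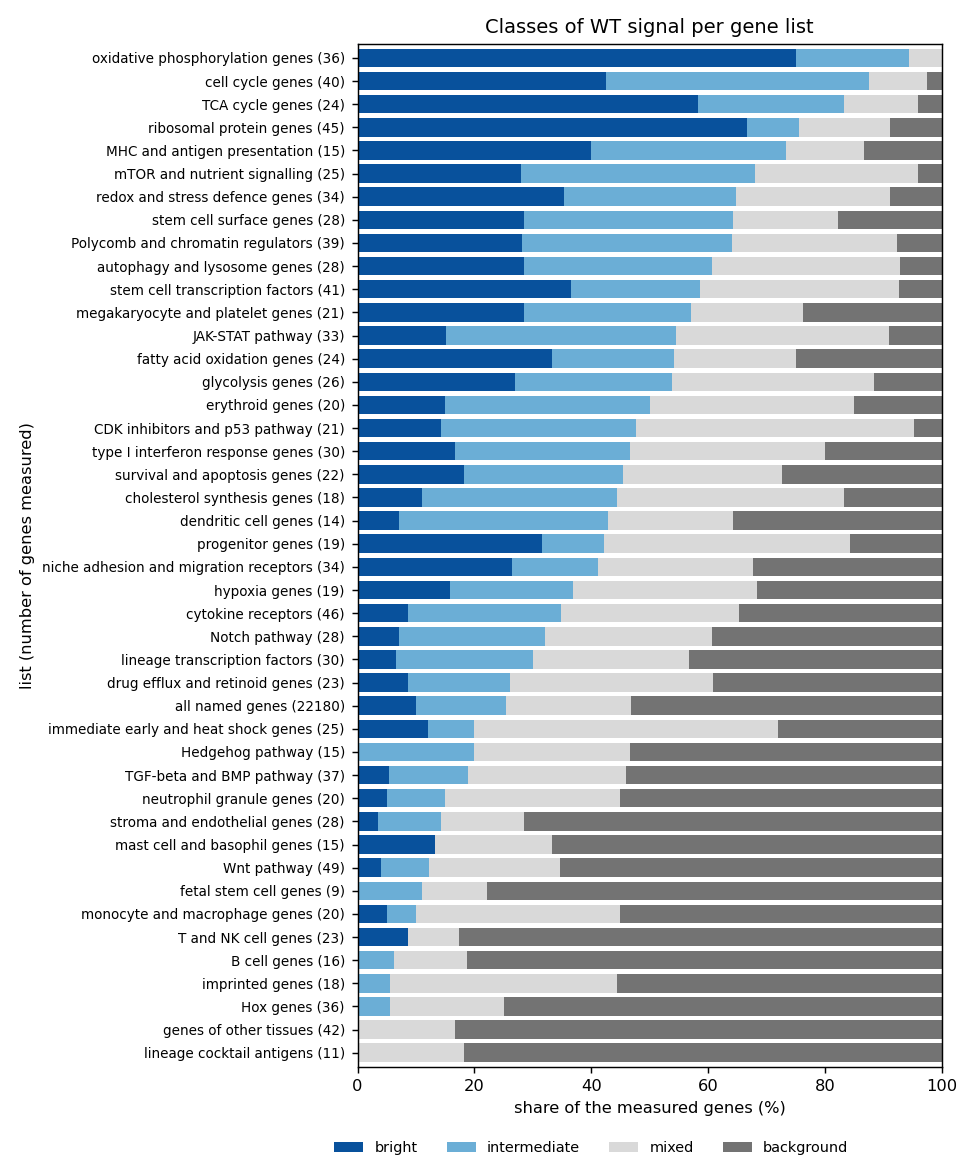
Share of measured genes in each class of WT signal (x axis, %) for 43 gene lists and all named genes (y axis, number measured in brackets). Oxidative phosphorylation, cell cycle and TCA cycle lists have the largest shares above background, and lineage cocktail antigens and genes of other tissues have none.

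Receptors that tie stem cells to the marrow were read selectively. Of 34 measured niche adhesion and migration receptors, 9 were bright and 5 intermediate (41.2% above background). Cxcr4, which retains cells in the marrow through the chemokine Cxcl12, read 8.55, 8.62 and 8.44. The integrin chains Itga4, which binds Vcam1, and Itgb1 read 8.49, 8.76 and 8.46 and 8.76, 8.88 and 8.66. All 3 were bright, with nearly the same value on each array. Cd47, the signal against engulfment by macrophages, read 10.32, 10.73 and 10.20, Selplg, the selectin ligand of homing cells, 8.94, 9.22 and 8.86, and Plxnc1, a semaphorin receptor, 9.29, 9.46 and 9.42. Itga6 and P2ry14 were bright too. Tek, the Tie2 receptor that responds to angiopoietin, was intermediate at 6.77, 6.91 and 6.80, and S1pr1, Nrp1, Ccr7 and Vcam1 were at background.

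The ligands on the niche side were mostly at background. Stroma and endothelial genes had 4 of 28 above background. Cxcl12 and Kitl, the stem cell factor gene, were at background at 5.70, 5.70 and 5.70 and 4.28, 4.07 and 4.21, as were Lepr, Col1a2, Kdr and Pdgfra. Angpt1, the Tie2 ligand, was the bright exception at 10.22, 10.31 and 10.11. Pecam1, Vwf and Acta2 were intermediate.

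Of 46 cytokine receptors 16 were above background (34.8%). With the 99th percentile of olfactory receptor genes as threshold the count was 4 of 46, beside 11.4% of all genes. With the 90th percentile it was 26, beside 38.5% of all genes. The bright ones were Kit, the interferon receptor chains Ifnar2 at 8.93, 9.06 and 8.73 and Ifngr1 at 8.63, 8.73 and 8.03, and Il17ra at 8.22, 8.68 and 7.75. Csf3r, the receptor for granulocyte colony-stimulating factor, read 7.22, 8.13 and 7.95 and Il6st, the shared gp130 chain, 7.49, 7.65 and 7.09. Igf1r was intermediate as well. Csf2rb, the shared beta chain for IL-3, IL-5 and GM-CSF, was mixed at 6.59, 6.72 and 6.64, and Csf1r and Il7r, receptors of macrophage and lymphoid precursors, were at background.

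Downstream of these receptors, the JAK-STAT pathway had 18 of 33 members above background (54.5%). This count was 5 of 33 with the 99th percentile of olfactory receptor genes as threshold, beside 11.4% of all genes. With the 90th percentile it was 27, beside 38.5% of all genes. Jak2, the kinase that carries the mutation in the other groups, was bright in WT at 7.91, 8.11 and 8.09, and Jak1 at 8.97, 9.03 and 8.80. Stat3 read 7.81, 8.22 and 8.02 and Stat4 8.29, 8.72 and 8.47, both bright, and Stat5b 7.59, 8.34 and 7.58 and Stat5a 7.39, 7.86 and 7.09, both intermediate. The phosphatase gene Ptpn6 was bright. Among negative regulators induced by the pathway Socs1, Socs3 and Sh2b3 were mixed and Socs2 was at background, whereas Cish was intermediate at 7.85, 7.46 and 7.17. Of 8 Socs and Cish genes, 2 were above background, a share near the 25.4% of all genes.

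Developmental pathways had few ligands above background. In the TGF-beta and BMP pathway 7 of 37 members were above background (18.9%, beside 25.4% of all genes). Tgfb1, a quiescence signal that blood cells make themselves, was bright at 8.57, 9.04 and 8.89, and 1 of 11 ligands of the family was above background. The co-receptor gene Eng was bright at 8.51, 9.01 and 8.64, Bmpr2, Tgfbr3, Smad2, Smad4 and Smad5 were intermediate, and Tgfbr1 and Tgfbr2 were mixed. Of 49 Wnt pathway members 6 were above background (12.2%), and 10 without WT replicate 3. None of 19 Wnt ligands and none of 10 Frizzled receptors were among them. Ctnnb1, beta-catenin, was bright at 8.09, 8.30 and 8.25, as was Wls, which exports Wnt proteins, at 7.79, 8.02 and 7.98. Axin2 and Lef1, targets of the pathway, were at background. Notch members were above background in 9 of 28 (32.1%). Adam10, the protease that releases the Notch ectodomain, read 9.35, 9.48 and 9.08, Mfng, a Notch glycosyltransferase, 7.84, 8.09 and 8.05, and Notch2 6.92, 7.70 and 7.33. Notch1 was mixed, all 5 ligands were at background, and the targets Hes1, Hes5 and Hey1 were at background. Hedgehog members gave 3 of 15, Smo at 7.36, 7.42 and 7.35, Sufu at 7.10, 7.12 and 7.11 and Ptch1 at 6.70, 7.21 and 6.995, with Gli1, Gli2 and Gli3 at background.

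Interferon genes bear on a baseline taken 12 weeks after an inducer of interferon. Of 30 type I interferon response genes 14 were above background (46.7%). The bright ones included Ifitm3 at 10.91, 10.94 and 10.98 and Ifitm2 at 10.37, 10.94 and 10.55, membrane proteins against virus entry that stem cells are known to carry without infection. Ifi27, Bst2 and Xaf1 were bright too. Of the 30, 10 were mixed and 6 at background. Mx1, a GTPase against influenza viruses, read 3.84, 3.71 and 3.94, Isg15, a ubiquitin-like modifier, 5.70, 5.90 and 5.34, and Rsad2 6.28, 5.54 and 5.58, all among those at background. No mice without pI-pC were measured, so the part of the injections in these values was not tested. Class I antigen presentation was high, with B2m, its light chain, at 12.67, 12.58 and 12.62 and Psmb9, of the immunoproteasome, at 10.34, 10.37 and 10.56. H2-K1 read 8.89, 9.19 and 9.15. Class II genes varied by gene, with H2-Ab1 intermediate at 8.10, 7.55 and 7.98 and H2-Eb1 at background at 6.11, 5.78 and 6.07.

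Cell cycle genes were widely above background. Of 40 measured, 17 were bright and 18 intermediate, 87.5% in all. Pcna, the replication clamp, read 10.73, 11.05 and 10.96, and Mki67, a marker of cycling cells, 8.74, 9.35 and 9.15. Top2a, of mitotic chromosomes, read 8.56, 9.43 and 9.004 and Cdk1, the mitotic kinase, 7.87, 8.95 and 8.77. For these 4 genes replicate 1 was the lowest and replicate 2 the highest, as replicate 2 was for 37 of the 40 genes. All 6 genes of the Mcm2 to Mcm7 helicase were above background and 5 of them bright. Cdk6, a kinase of the exit from quiescence, read 9.29, 10.26 and 9.79. E2f2 was at background, and Plk1, Ccne1, E2f1 and Foxm1 were mixed. RNA from bulk cells does not give the share of cells in cycle.

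Of 21 CDK inhibitors and p53 pathway genes 10 were above background. Cdkn1b, which encodes p27, was intermediate at 7.003, 7.65 and 6.90, Cdkn1a, which encodes p21, mixed at 6.20, 6.51 and 6.28, and Cdkn2a mixed at 5.95, 6.03 and 5.90. Txnip, a stress regulator of stem cells, read 10.80, 10.58 and 10.18, and Ccng1, a p53 target, 9.02, 8.997 and 8.99. Both were bright. Immediate early genes respond to handling as well as to growth signals. Of 25 immediate early and heat shock genes 5 were above background, 13 mixed and 7 at background, with 8 above background without WT replicate 3. Jun read 6.03, 7.53 and 6.23, Fos 5.09, 6.70 and 5.42 and Zfp36, a decay factor for inflammatory RNA, 7.62, 8.96 and 7.98. Replicate 2 was the highest on each of these 3 genes, while Hspa1a and Hspa1b, the inducible heat shock genes, were at background on all arrays. Of the 25 members 14 were highest on replicate 2. The same held for 8077 of all 22180 genes and for 3883 of the 5633 above background.

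Polycomb and other chromatin regulators were read in 64.1% of 39 measured genes, 11 of them bright. The core of Polycomb repressive complex 2 was bright throughout. Ezh2, its methyltransferase and the gene deleted in the third group, read 8.48, 8.81 and 8.69, Eed 8.29, 8.66 and 8.39 and Suz12 8.15, 8.51 and 8.01. Ezh1, the alternative methyltransferase, was intermediate at 7.14, 7.51 and 7.48. In complex 1 Rnf2 was intermediate at 7.62, 7.95 and 7.88, Bmi1 and Ring1 were mixed, and Cbx7, linked to self-renewal, was at background at 5.85, 5.85 and 5.98. Kdm6a, which removes the Polycomb mark, was bright. Among DNA methylation genes Dnmt1 was bright at 9.11, 9.57 and 9.28, Dnmt3a and Dnmt3b were intermediate with means of 6.96 ± 0.076 and 7.22 ± 0.20 (SD, n = 3), and Tet2, often mutated in clonal blood disorders, was mixed at 5.89, 6.64 and 6.80.

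Oxidative phosphorylation genes encoded in the nucleus had the largest share above background of the lists beyond the sort gate, at 94.4%. Of 36 measured, 27 were bright, 7 intermediate and 0 at background, with a median rank of 98.1. Atp5e, of the ATP synthase, read 11.73, 12.14 and 11.97, Ndufa4 11.27, 11.49 and 11.34 and Cox6a1, of cytochrome c oxidase, 10.83, 11.23 and 11.06. In the TCA cycle 14 of 24 genes were bright and 6 intermediate. Mdh2, malate dehydrogenase, read 9.82, 10.51 and 10.19, Idh3g, a subunit of isocitrate dehydrogenase, 10.27, 10.45 and 10.17, and Cs, citrate synthase, 8.70, 8.97 and 8.75. Pcx, pyruvate carboxylase, was at background. Glycolysis had 14 of 26 above background (53.8%). Gapdh read 11.39, 11.59 and 11.35, Pkm, pyruvate kinase, 9.20, 9.56 and 9.15, and Pdk1, which keeps pyruvate out of mitochondria, 9.03, 8.50 and 8.23. Pdk1 was highest on replicate 1 and lowest on replicate 3, while Ldha was mixed at 5.73, 5.91 and 5.37 and Pdk4 at background.

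Fatty acid oxidation genes were above background in 13 of 24, among them Hadha, of the mitochondrial trifunctional protein, at 8.68, 9.23 and 8.68. Cpt1a, the entry step into mitochondria, was intermediate at 7.90, 8.17 and 7.39, and the regulators Ppara, Pparg and Ppargc1a were at background. Redox and stress defence genes were above background in 22 of 34, with Sod1, superoxide dismutase, at 11.68, 11.81 and 11.76, Gpx1 at 11.36, 11.69 and 11.58 and Fth1, ferritin heavy chain, at 11.41, 11.58 and 11.29. Hypoxia genes were above background in 7 of 19. Hif1a, the oxygen-regulated factor, was intermediate at 7.34, 7.54 and 7.20, Epas1 and Vhl were at background, and Vegfa was mixed at 6.40, 6.30 and 6.14. Cholesterol synthesis genes gave 8 of 18, with the regulator gene Srebf2 bright at 8.10, 8.66 and 8.31.

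Drug efflux and retinoid genes were above background in 6 of 23, a share of 26.1% near the 25.4% of all genes. Abcg2, the pump behind the side population of stem cells, read 7.83, 7.74 and 7.77 and was intermediate, whereas Abcb1a was at background. Aldh2 was bright at 11.01, 10.90 and 10.82. Aldh1a1, which oxidises retinaldehyde, read 8.13, 8.27 and 9.38, and its replicate 3 value lay over 1 log2 unit above the others. Retinoid receptors were low in class, with Rara, Rarb and Rarg mixed, Rxra at background and the degrading enzyme gene Cyp26b1 at background.

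Housekeeping programs filled out the profile. Autophagy and lysosome genes were above background in 17 of 28, with Map1lc3b, of the autophagosome membrane, at 9.70, 9.40 and 9.76 and Ctsd, a lysosomal protease, at 9.37, 9.83 and 9.44. The mTOR and nutrient signalling list had 17 of 25, among them Rheb, which activates the kinase complex, at 7.80, 8.08 and 8.06 and Mtor itself at 6.67, 7.18 and 7.01. Survival genes were above background in 10 of 22. Mcl1, on which stem cells depend, read 9.10, 9.43 and 9.15 and Bcl2 8.35, 8.49 and 8.58, while the death genes Bbc3, Pmaip1 and Hrk were at background. The 10 highest WT means outside ribosomal protein genes belonged to the mitochondrial genes ND3, ND4, ND5, ND6, COX3 and CYTB and to B2m, Tuba1c, Hspa8 and Tpt1. ND3 read 12.84, 12.78 and 12.76.

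The WT arrays differed among themselves. Over the 5633 genes above background the mean signal of replicates 1, 2 and 3 was 7.79, 8.05 and 7.88, and 3883 of these genes were highest on replicate 2. Olfactory receptor genes moved the opposite way, with means of 4.29, 3.93 and 4.41. List differences are to be read against this. For cell cycle genes the means were 7.57, 8.22 and 7.97, for erythroid genes 6.79, 7.36 and 6.96 and for stem cell transcription factors 7.48, 7.57 and 7.42. Replicate 2 was thus above replicate 1 by 0.66 for cell cycle genes and by 0.084 for stem cell transcription factors, and by 0.25 over all genes above background. B cell genes, with means of 5.41, 5.26 and 5.14, were highest on replicate 1. Of these 16 genes 13 were at background. Genes of other tissues, none of them above background, were also highest on replicate 1, at 5.24, 5.095 and 5.18. With 1 array per replicate none of these differences was tested.

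Of the 10 nameable genes above background with the largest SD over the WT arrays, Ighm, the IgM heavy chain, came first at 7.43, 9.997 and 7.45. Ube2c, of mitotic exit, was lowest on replicate 1 at 6.85, 8.33 and 8.17. Ctse, cathepsin E, read 9.99, 9.46 and 8.01 and Cd53, a leukocyte tetraspanin, 8.37, 8.82 and 7.25, both lowest on replicate 3. Spin2d, Oog1, Obox3, Mrgpra2b, Zfp972 and Pla2g10os were lowest on replicate 2, as the olfactory receptor genes were; Oog1 and Obox3 are known from oocytes. Spin2d read 8.60, 6.39 and 8.36. At the other end Msi2 had an SD of 0.0074 and Nlk, a kinase of the Wnt and Notch pathways, one of 0.0089. Among bright genes with 3 distinct values, S100a11, Cops9, Fam53c, Ccng1, Rab38, Tram1, Cnot2 and Slc25a4 completed the 10 with the smallest SD.

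**Figure D5:**
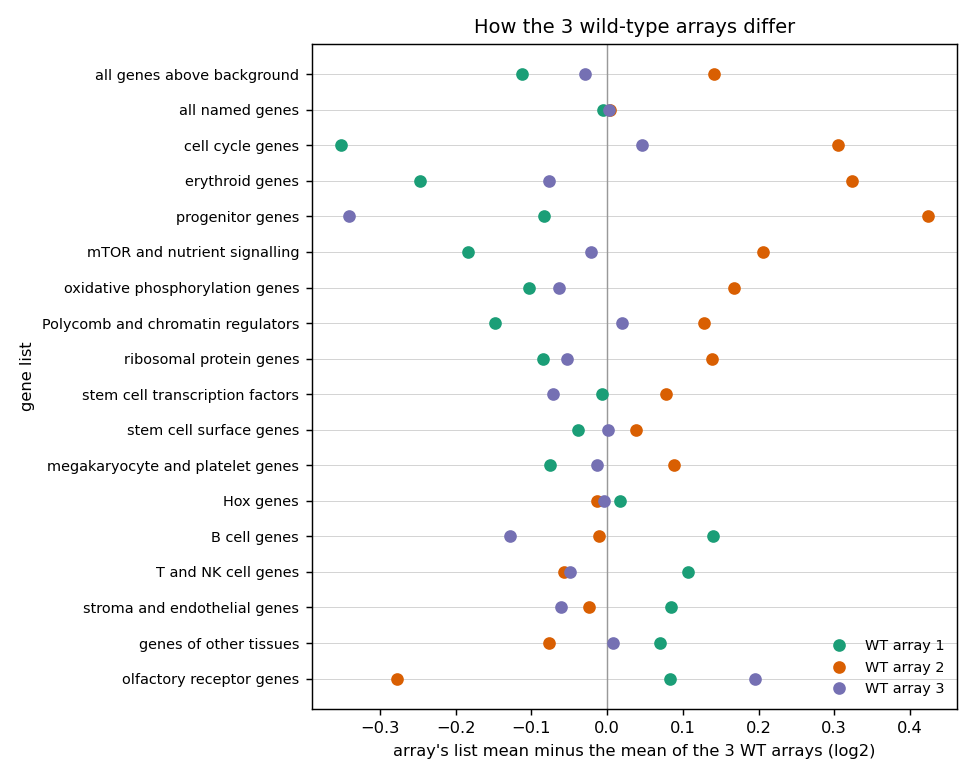
Mean log2 signal of a gene list on each WT array minus the mean of the 3 WT arrays (x axis) for 18 lists (y axis). Replicate 2 (orange) lies highest for cell cycle, erythroid and progenitor genes and for all genes above background, and lowest for olfactory receptor genes.

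The last question was which baseline genes stood apart from the mutant groups. Ezh2 read 8.87, 9.09 and 8.78 in Jak2VF and 8.47, 8.08 and 8.42 in Jak2VF_Ezh2KO, so the mean in WT was above that of the deleted group by 0.34 ± 0.16 (SE, limma adjusted p = 0.596). These 2 groups did not overlap, as held for 12.9% of all genes. The lowest WT array lay just above the 8.47 of Jak2VF_Ezh2KO replicate 1. The deposited table does not tell whether the probe set covers the deleted exons. Receptor signal and the signal of sex-linked genes differed between arrays as well, also within groups. The labels do not give the sex of the mice. The olfactory receptor threshold was 6.57 and 6.69 on WT replicates 1 and 3 and 6.69 on Jak2VF replicate 1, and between 5.84 and 5.99 on the other arrays, all 3 Jak2VF_Ezh2KO arrays included. Xist, of the inactive X chromosome, read 10.98, 11.31 and 11.18 in WT and 4.86, 4.56 and 10.84 in Jak2VF_Ezh2KO. Eif2s3y, of the Y chromosome, read 7.54, 8.18 and 3.73 in the same group and stayed at background on all WT and Jak2VF arrays. The part of the threshold in the differences was not tested.

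Against Jak2VF, limma called 0 of 22180 genes at an adjusted p under 0.05 (0%), and 1034 had an unadjusted p under 0.05 (4.66%). Ordinary least squares also called 0, with 846 genes at an unadjusted p under 0.05. Of the 1058 measured list members, 0 passed and 95 had an unadjusted p under 0.05 (8.98%). The groups did not overlap for 106 members (10.0%), beside 6.11% of all genes. The 3 members with the smallest p were Itga2b, H2-Eb1 and Emcn. Itga2b read 8.07, 8.51 and 8.31 in Jak2VF, above every WT array, a WT minus Jak2VF difference of -1.17 ± 0.19 (SE, limma adjusted p = 0.308). Emcn read 6.43, 5.92 and 5.92, below every WT array (difference 1.40 ± 0.26, limma adjusted p = 0.589). H2-Eb1 read 6.69, 7.10 and 7.18 (limma adjusted p = 0.308). None of these differences passed.

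The stem cell markers were set beside the same group. Procr read 7.25, 7.01 and 7.18 in Jak2VF, Mecom 6.91, 7.09 and 7.16 and Mllt3 7.46, 7.25 and 7.55. In each case the 3 WT arrays lay above the 3 Jak2VF arrays, by 0.64, 0.71 and 0.56 on average. Groups without overlap, in either direction, were found for 6.11% of all genes. The limma adjusted p was 0.868 for Procr and Mllt3 and 0.863 for Mecom, so these differences did not pass. Kit, at 9.80, 9.97 and 9.76, overlapped with WT.

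Against Jak2VF_Ezh2KO, limma called 5 of 22180 genes (0.0225%), 1 higher and 4 lower in WT. Of the 1058 list members 1 passed, 140 had an unadjusted p under 0.05 (13.2%, beside 8.60% of all genes), and 198 did not overlap (18.7%, beside 12.9%). The member that passed was Cma1, mast cell chymase, which was at background in WT and read 6.91, 6.49 and 6.35 in Jak2VF_Ezh2KO. Its WT minus Jak2VF_Ezh2KO difference was -1.67 ± 0.20 (SE, limma adjusted p = 0.0459), and the adjusted p ran from 0.0155 to 0.538 over the other settings. The count of 5 became 0 without WT replicate 1, without Jak2VF replicate 2 or 3, without Jak2VF_Ezh2KO replicate 1 or 2, and without both arrays of low Xist (a setting added after the data were seen, with 1190 genes at an unadjusted p under 0.05 and a limma adjusted p of 0.538 for Cma1). It became 2 without WT replicate 2, 1 without WT replicate 3 and 14 without Jak2VF_Ezh2KO replicate 3, and 0 in ordinary least squares, where 1516 genes had an unadjusted p under 0.05. The other genes were chosen for mention after their values were seen. Mab21l2 and Fam169a were lower in WT at 4.69, 5.11 and 4.77 and 4.80, 4.97 and 4.85, and the remaining calls were a vomeronasal and an olfactory receptor gene, Vmn1r188 and Olfr1046, of the families that serve as background reference. Procr, Mecom and Mllt3 had limma adjusted p values of 0.640, 0.533 and 0.669 against this group. The replicates are labelled biological, and with 3 arrays per group these p-values measure the spread between these samples only.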

How the data were processed

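RNA of sorted stem cells from 9 samples was hybridised to mouse gene expression arrays, 1 array each. The deposited values are on the log2 scale, with Partek 6.6 named in the submitters' processing notes. How the authors corrected background and normalized the arrays is not stated there, so only ranks and differences within the table were used. Of 41345 probe sets, 23521 had 1 gene symbol, 1814 several and 16010 none. For the 1082 genes with several probe sets, that with the highest mean over all arrays was kept.

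Signal classes followed olfactory receptor genes of the same array. Both contrasts used limma 3.58.1 in R 4.3.3 on all 9 arrays without a block, with Benjamini-Hochberg adjustment over 22180 genes and a threshold of 0.05. The code was tested on simulated data. Same-numbered arrays of different groups had deviations that correlated at -0.231 to 0.484, over 0.1 in 2 of 9 pairs, and were not taken as pairs. Precision is limited by 3 arrays per group.

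The members and lists were chosen with earlier results of these data known. The 45 lists name 1154 genes, of which 1058 were measured and 37 lay only on probe sets shared with other genes. Named beyond list members were the 10 brightest genes outside ribosomal protein genes, the 10 genes above background with the largest SD, the 10 bright genes with the smallest, and per contrast the members that passed or the 3 with the smallest p. Receptor genes of smell and pheromones, predicted genes, RIKEN clones, pseudogenes and small RNAs were counted, not named, except calls in a short count. Alternatives varied the threshold, its reference, the probe set rule, normalization, variance model, genes tested and arrays. Promoter sequences are RefSeq's (GRCm38.p6). Tables were handled in Python 3.11.15 with pandas 2.3.3 and numpy 2.4.6.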

Additional observations from a re-analysis of the deposited data

Results flagged for a closer look

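Some signal lay outside the named genes. Of 16010 probe sets without a gene name, 3103 passed the background threshold on all 3 WT arrays (19.4%). Of 1814 probe sets that carry several gene symbols, 711 did so (39.2%), beside 25.4% of named genes. These probe sets entered no comparison by gene. With 3 samples in each group, single arrays were not tested as outliers.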

How the results depend on the processing

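Of 5633 genes above background, 2525 were left with the 99th percentile of olfactory receptor genes as threshold and 8543 with the 90th, and list members went from 455 to 256 with the 99th. Without 1 WT array the count was 5652 to 6507 for genes and 455 to 514 for members, and the other settings stayed within 1.5 times. With the lowest probe set of each gene, Mecom lay at -0.19 relative to the threshold (log2) in place of 1.37. Over all lists and settings, 379 counts of members above background stayed within 1.5 times and 71 moved. Against Jak2VF, limma called 0 genes under every setting run, the replicate block included, which gave 0 calls and 1178 genes at an unadjusted p under 0.05. These unadjusted counts ran from 592 to 2370 as 1 array was left out. Against Jak2VF_Ezh2KO, the 5 calls became 10 with an intensity trend and robust variance, 3 with median centring and 20 among genes above background in either group. They became 0 with ordinary least squares, with limma on those groups alone, with every probe set tested, without both arrays of low Xist and with the replicate block. The features at an unadjusted p under 0.05 then numbered 1516, 1926, 3593, 1190 and 2039 in that order. Leaving out 1 array gave 0 to 14 calls. The cause was not tested. Of the 4743 mixed genes, 3267 passed on WT replicate 2 alone, the WT array with the lowest threshold.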
